A study of Zea mays with 18 samples.

Results

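The loci described here were read in kernels of the maize inbred line JI63 and, with very few reads, in kernels of the inbred line DAN3130. They are the assembled loci with a mean of at least 50 DESeq-normalized counts over the 9 JI63 libraries and a mean below 0.5 over the 9 DAN3130 libraries. The rule found 367 loci among 77704 in the table, or 1.89% of the 19428 loci whose JI63 mean was at least 50. They are called JI63-only loci below, and since they were chosen by their mean levels in both lines, the difference between the lines was described and not tested. The mirrored rule, with the lines exchanged, found 531 loci, or 2.71% of the 19561 loci with a DAN3130 mean of at least 50.

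RNA sequencing of whole kernels covered both lines at 24 and 35 days after pollination (DAP 24 and DAP 35) and at maturity, when the plants had turned yellow, with 3 libraries in each of the 6 groups. DAN3130 derives from the American hybrid P78599 and JI63 from the cross (127-32 × Tie84) × (Wei24 × Wei20), both were field grown in the same season, and the labels name no treatment. Replicates were harvested separately at each stage, but the study's methods also mention pooled RNA, so p-values measure the spread between these libraries, which may in part be technical.

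Maize inbred lines are known to differ in gene content, so that a gene of one line can be missing, or strongly diverged in sequence, in another. Reads of both lines were aligned to the genome of a further inbred, B73, and a locus missing from B73 could therefore not be seen at all. Transcript assembly from the reads also recovers loci without an annotated gene, among them long noncoding RNAs and transcribed repeats. A locus that is missing or diverged in DAN3130 and a locus that is present but silent there cannot be told apart from RNA alone.

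Reads in loci ranged from 15496827 to 133264978 per library in JI63 and from 9428728 to 73050254 in DAN3130. The 3 deepest JI63 libraries were DAP 35 replicate 26, DAP 35 replicate 29 and DAP 24 replicate 25, while mature JI63 kernels gave 19237248 to 21412278 reads per library. The kernel origin was checked on marker lists. Endosperm markers such as zeins summed to 692828 to 1761090 normalized counts on DAP 24 and leaf markers to 77.2 to 1286 in any library. In mature kernels endosperm markers summed to only 458 to 25872, while embryo markers summed to 1360720 to 4670030. No JI63-only locus was on these lists.

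The JI63-only loci were nearly silent in every DAN3130 library, as the rule requires. In 195 of them no read was found in any of the 9 DAN3130 libraries, 106 had reads in 1 library, 55 in 2 and 11 in 3 or more. The most reads any of them had in DAN3130 was 13, and all 367 together had 577 reads in DAN3130 against 947678 in JI63. Set on the normalized scale, the summed level in DAN3130 was 0.0548% of that in JI63. For the 195 loci without DAN3130 reads, taking 3 reads over the DAN3130 libraries as the floor, the level was at least 164-fold to at least 8334-fold higher in JI63, where these bounds cover counting error only.

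The few DAN3130 reads were not spread evenly over libraries. DAP 24 replicate 10, the deepest DAN3130 library, held 353 of the 577 reads, or 61.2%, while it held 28.4% of all DAN3130 reads in loci. The other 8 DAN3130 libraries held 3 to 89 reads each, 224 in all. The rule limits normalized counts, and 1 read was worth 0.327 of them in this library and 0.589 to 3.54 in the others. The rule itself thus allowed more reads in this library, and what else set it apart was not tested.

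In JI63 the same loci were read in nearly every library. Of the 367, 272 had reads in all 9 JI63 libraries, while 4 had none in any DAP 24 library, 1 had none on DAP 35 and 20 had none in mature kernels. They took 0.156% to 0.237% of the normalized counts of each JI63 library. Their JI63 means ran from 50.01 to 5434 normalized counts with a median of 90.2. Divided by the length of the longest assembled isoform, the median was 82.4 normalized counts per kilobase, against 201 for the other 19061 loci with a JI63 mean of at least 50.

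The share of JI63-only loci was smaller among loci of a higher level. They were 199 loci between 50 and 100 normalized counts, 7.93% of the loci in that range, 148 between 100 and 500, 2.00% of that range, and 20 at 500 or more, 0.210%. The DAN3130 limit is the same at every level, so a locus with a higher JI63 mean needs a larger ratio between the lines. This order was thus partly fixed by the rule. The JI63 means just inside the limit were 50.01 (XLOC_060327), 50.03 (XLOC_054822) and 50.2 (XLOC_056661), and those just outside were 49.9 (XLOC_022764), 49.8 (XLOC_024586) and 49.5 (XLOC_048065). The DAN3130 means just inside were 0.495 (XLOC_024252), 0.491 (XLOC_057965) and 0.486 (XLOC_016704), and just outside 0.509 for XLOC_064005, XLOC_058359 and XLOC_064904. Levels in DAN3130 did not break off at this limit, and a further 451 loci with a JI63 mean of at least 50 had a DAN3130 mean from 0.5 to under 5.

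Most JI63-only loci had no annotated gene of B73. This held for 249 of the 367 (67.8%), against 1153 of the other 19061 loci with a JI63 mean of at least 50 (6.05%). The contrast was present in each range of levels. Without a B73 gene were 72.4% of JI63-only loci and 17.9% of the others between 50 and 100 normalized counts, 64.2% and 7.11% between 100 and 500, and 10 of 20 JI63-only loci and 2.37% of the others at 500 or more. Read the other way, 17.8% of the 1402 loci without a B73 gene, but 0.655% of the 18026 loci with one, were JI63-only. The loci read only in DAN3130 showed a like share, with 71.9% lacking a B73 gene against 9.03% of all loci with a DAN3130 mean of at least 50.

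The 249 loci without a gene mostly had no annotated gene of B73 listed at their position. Of them, 236 had no annotated gene listed as overlapping or as antisense, 7 had one listed as overlapping and 6 one listed as antisense alone. Of the 38951 loci with 1 B73 gene, 18449 had that gene listed as overlapping, 17707 as antisense alone and 2795 in neither way. An empty listing thus does not show that a locus lies outside genes, and the antisense listing does not give the strand. Reads carried no strand and the strand column held a single value, so reads from a gene and from an antisense partner cannot be told apart. The median distance to the nearest locus with a B73 gene was 7.37 kb, against 6.44 kb for the other loci without a gene. Within 1 kb of such a locus lay 21.5% of them and 28.8% of the others, and farther than 20 kb lay 32.8% and 35.6%. Of the 247 and 995 loci with a distance, 21 and 144 touched such a locus.

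JI63-only loci were also short and seldom had an intron entry. The median longest isoform was 1505 bases, against 2316 bases in the other loci. The gap held among loci without a gene (1387 against 1743 bases) and among those with one (1766.5 against 2351 bases). An intron entry was listed for 32.2% of JI63-only loci and 54.3% of the others. Among loci without a gene these shares were 22.1% and 33.3%, while among loci with a gene they lay close together, at 53.4% and 55.6%.

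**Figure D1:**
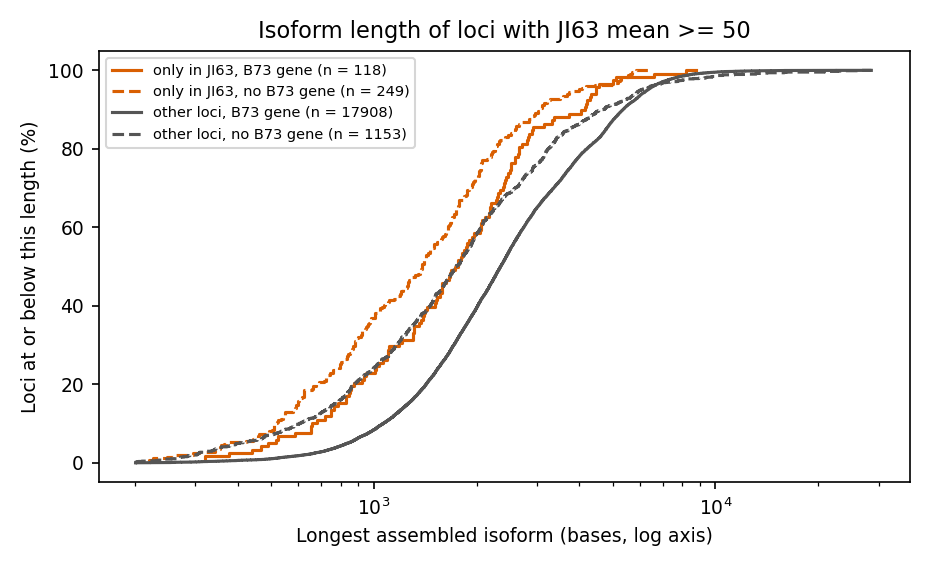
Cumulative share of loci (%, y axis) by length of the longest assembled isoform (bases, log x axis) for loci with a JI63 mean of at least 50, split by line pattern and by B73 annotation. The curve of the 249 JI63-only loci without a gene lies farthest to the left (median 1387 bases) and that of the 17908 other loci with a gene lies to the right of the rest over most of its length (median 2351 bases).

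The intron entries gave a separate count of reads that the rule did not use. Of the 118 JI63-only loci with an intron entry, 23 had an intron mean of at least 5 in JI63. Of these 23, 14 had an intron mean below 0.5 in DAN3130 and 2 had one of at least 5, namely XLOC_065145 (6.63) and XLOC_013576 (5.85). For the 3953 other loci with a JI63 mean of at least 50 and an intron mean of at least 5 in JI63, these shares were 5.36% and 72.6%, against 60.9% and 8.70% here. The intron of XLOC_032269 had a mean of 408 in JI63 and no reads in DAN3130. The intron of XLOC_072901, the locus of Zm00001d010327, went the other way, with 3.99 in JI63 and 10.8 in DAN3130, while its exons were read only in JI63. These 4 loci were singled out after their values were seen.

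The JI63-only loci lay on all 10 chromosomes. In the B73 AGPv4 coordinates of the table, 365 were on chromosomes 1 to 10 and 2 on unplaced contigs. Chromosome 3 held the most, with 55, which was 2.62% of its loci with a JI63 mean of at least 50. Chromosome 1 had the lowest share, with 44 loci and 1.45%, followed by chromosome 2 with 34 loci and 1.495%. Chromosome 10 was next to chromosome 3, with 29 loci and 2.30%, and chromosome 8 held 38 loci and 2.14%. The other 5 chromosomes ranged from 1.65% on chromosome 6 to 1.96% on chromosome 4. Neighbouring loci are not independent, and no test was made of these shares.

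**Figure D2:**
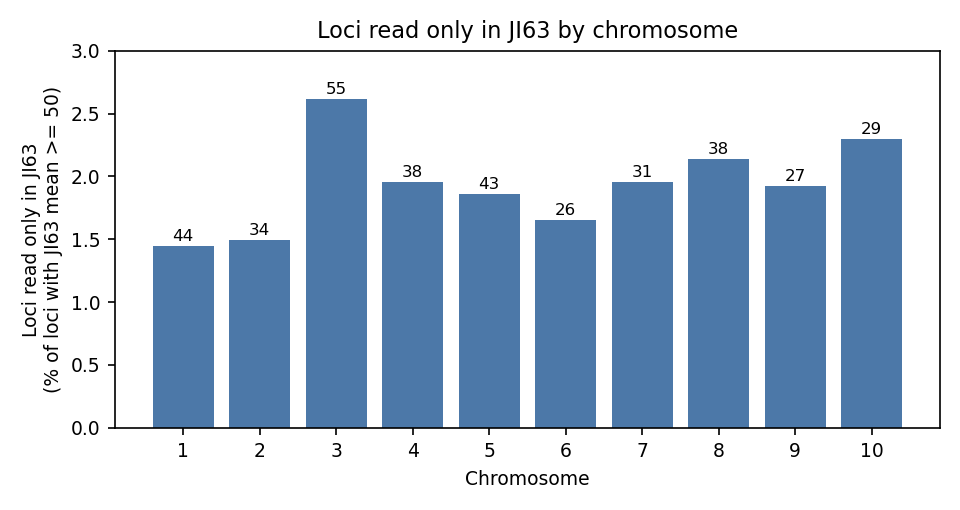
JI63-only loci as a percentage of the loci with a JI63 mean of at least 50 on each chromosome (bars, y axis in %), with the number of JI63-only loci above each bar. Chromosome 3 stands highest, with 55 loci and 2.62%, and chromosome 1 lowest, with 44 loci and 1.45%.

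Along the chromosome arms, JI63-only loci lay somewhat farther from the ends than the other loci. Their median distance from the nearest chromosome end was 20.1% of the chromosome, against 15.9% for the other loci and 23.4% for the other loci without a B73 gene. Within 500 kb on either side they had a median of 9 loci with a JI63 mean of at least 50, against 11 for the other loci. Other loci without a gene also had a median of 9.

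Most JI63-only loci stood alone among loci read in both lines, and a minority lay close to another. With a gap of at most 200 kb between neighbours, 63 of the 367 (17.2%) formed 30 clusters, 27 of them pairs and 3 of them groups of 3. No run of JI63-only loci was longer than 3. The next locus with a JI63 mean of at least 50 was itself JI63-only for 26 of 364 JI63-only loci (7.14%), against 340 of 18981 other loci (1.79%). The clusters spanned 2.17 kb to 256.6 kb, with a median of 36.1 kb, and 12 of the 30 spanned less than 20 kb. Of the 63 clustered loci, 48 (76.2%) had no B73 gene.

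Within the span of a cluster, other loci could be active in both lines. In 19 of the 30 clusters no other locus with a JI63 mean of at least 50 touched the span from the first to the last JI63-only locus. The spans of the other 11 clusters were touched by 20 such loci, 17 of them with a DAN3130 mean of at least 50. These can lie between the JI63-only loci or overlap them. Flanking loci were taken as the nearest locus on each side with a JI63 mean of at least 50 that was not itself JI63-only. JI63-only neighbours were thus skipped, so no flanking locus could have a DAN3130 mean below 0.5. Of 669 flanking loci, 573 (85.7%) had a DAN3130 mean of at least 50, against 90.5% of all other loci. Those other loci leave out JI63-only loci too. A DAN3130 mean under 5 was found in 34 flanking loci (5.08%), against 2.37% of all other loci. These flanking loci lay at a median of 80.5 kb.

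Stage differences within JI63 were tested with limma over all 27127 loci with a JI63 mean above 10, of which all 367 JI63-only loci were part. Both comparisons, DAP 24 to DAP 35 and DAP 35 to maturity, share the DAP 35 libraries, and a call is an adjusted p under 0.05 after Benjamini-Hochberg adjustment. Fold changes are on the scale of log2(normalized count + 1), which understates the change of low loci.

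The rule set a limit on the JI63 mean, and 181 of the 367 loci (49.3%) reached it only through their highest stage, against 9.65% of the other loci with a JI63 mean of at least 50. The mean over the 6 JI63 libraries of the other stages was below 50 in these loci, and the stage was DAP 24 for 49, DAP 35 for 32 and maturity for 100. A difference that involves that stage was partly fixed by the rule, so it is given below as a difference with its SE and with no p, and such loci are described as higher or lower. The other 186 loci passed the limit without their highest stage. JI63-only loci lay nearer the limit, with a median JI63 mean of 90.2 against 498 in the other loci. The shares of 49.3% and 9.65% are thus not matched for level.

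The first cluster of 3 was on chromosome 10, from 4347461 to 4375795. It held phytosulfokine4 (Zm00001d023385, XLOC_014286), the locus XLOC_016069 without a gene, and Zm00001d023387 (XLOC_014287). XLOC_016069 had 0, 0 and 3.37 normalized counts on DAP 24, 0 in each DAP 35 library, and 312, 296 and 601 in mature kernels. Zm00001d023387 had 5.93, 3.21 and 0 on DAP 24, 5.03, 4.88 and 7.31 on DAP 35, and 493, 445 and 609 at maturity. The first of these 2 neighbours was thus read almost only at maturity, and in the second every mature library was far above all others. All 3 loci passed the limit of the rule only through their highest stage. XLOC_016069 was at least 1528-fold higher at maturity than on DAP 35, taking 3 reads over the DAP 35 libraries as the floor, and Zm00001d023387 was higher by 6.27 ± 0.74 (log2 fold change ± SE). Phytosulfokine4 was lower at maturity.

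The second cluster of 3 was on chromosome 3, from 198983732 to 199167581, and was interspersed with loci read in both lines. It held XLOC_033061 and XLOC_036454, which have no gene, and Zm00001d043419 (XLOC_030398). Between them lay 5 other loci with a JI63 mean of at least 50, among them Zm00001d043418, with 9896 normalized counts in JI63 and 8127 in DAN3130. XLOC_036454 had 26.9, 32.1 and 59.7 on DAP 24, 40.4, 53.7 and 33.8 on DAP 35, and 635, 431 and 523 in mature kernels, which all stood above the earlier stages. The difference from DAP 35 to maturity was 3.61 ± 0.42. Zm00001d043419 had 8.15, 14.6 and 11.0 on DAP 35 and 219, 91.1 and 114 at maturity, a difference of 3.47 ± 0.74, and like XLOC_036454 it passed the limit of the rule through maturity alone. XLOC_033061 had 99.9, 48.8 and 149 on DAP 35 and 43.9, 24.8 and 14.6 at maturity, and fell by 1.79 ± 0.57 (adjusted p = 0.0215). That fall missed the threshold without DAP 35 replicate 26, DAP 35 replicate 29 or mature replicate 41 (adjusted p = 0.0726, 0.0954 and 0.0540), and with only the 6 libraries compared in the fit (0.0640).

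The third cluster was on chromosome 5, from 218294370 to 218441809. It held the neighbouring genes Zm00001d018313 (XLOC_049298) and Zm00001d018314 (XLOC_049299) and the locus XLOC_055656 without a gene. Zm00001d018313 had 442, 410 and 455 normalized counts on DAP 24, 492, 438 and 485 on DAP 35, and 697, 803 and 1078 at maturity. The mature libraries lay above the others, and no read was found in DAN3130. It rose by 0.84 ± 0.20 from DAP 35 to maturity (adjusted p = 0.0048), but this direction depended on scaling and became -0.11 with libraries set to equal totals and -0.06 with equal upper quartiles, and with all 18 libraries in the fit the adjusted p was 0.163. Zm00001d018314 had 164, 137 and 119 on DAP 35 and 51.6, 51.8 and 68.2 at maturity, and fell by 1.28 ± 0.38 (adjusted p = 0.0165, or 0.0725 without DAP 35 replicate 26 and 0.0698 with all 18 libraries). XLOC_055656 passed the test at neither step. Between these loci, Zm00001d018316 (608 in JI63 and 571 in DAN3130) and Zm00001d018318 (1845 and 1565) were read in both lines.

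Among the pairs, stage patterns were at times shared and at times opposed. Of the 33 adjacent pairs within clusters, 17 had their highest mean at the same stage on the deposited scale. No such share was computed for other neighbouring loci, so whether this is a usual share is not known. On chromosome 1, XLOC_011375 and XLOC_011376 both had their highest mean at maturity (155 and 191, against 17.0 to 20.4 at the earlier stages). The former ended at 250356730 and the latter began at 250356871, and whether they are parts of 1 transcript was not tested. On the same chromosome, Zm00001d022937 (XLOC_002747) had stage means of 786, 1039 and 126 on DAP 24, DAP 35 and at maturity, while its neighbour XLOC_002750 had 417, 594 and 6598. On chromosome 8, the neighbouring genes Zm00001d008583 and Zm00001d008585 both had their highest mean on DAP 35 (330 and 226). These pairs were singled out after their values were seen.

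The file gave a name to 10 of the 367 loci (2.72%), against 15.3% of the other loci with a JI63 mean of at least 50. By the words of these names, 1 fell under enzymes of specialised metabolism (succinate dehydrogenase3, by the word dehydrogenase) and 1 under transcription and chromatin (Homeobox-transcription factor 86), while the other 8 had other words and 357 loci had no name. The 10 named loci are given next by role, from enzyme to regulators, signalling peptides and small nucleolar RNAs. Levels of related loci are means ± SD over the 9 libraries of a line.

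Succinate dehydrogenase3 belongs to the enzyme complex that links the tricarboxylic acid cycle to mitochondrial electron transport. Its locus on chromosome 8, from 22735299 to 22741099, joined Zm00001d008854 and Zm00001d008855, so the reads of these 2 genes cannot be separated. It had 237, 337 and 419 normalized counts on DAP 24, 764, 491 and 879 on DAP 35, and 92.9, 145 and 60.9 in mature kernels, and 4 reads in all in DAN3130. All DAP 35 libraries lay above all DAP 24 libraries and the mature ones below both. The step to DAP 35 missed the threshold (1.10 ± 0.38, adjusted p = 0.0831), and it fell to maturity by 2.87 ± 0.38 (adjusted p = 0.000154). Most other succinate dehydrogenase loci were read in both lines, such as succinate dehydrogenase1, with 3306 ± 425 in JI63 and 3914 ± 1904 in DAN3130. Exceptions were succinate dehydrogenase6, with 63.9 ± 30.2 in JI63 and 2.23 ± 2.43 in DAN3130, and succinate dehydrogenase8, without a read in either line.

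Among regulators, Homeobox-transcription factor 86 (Zm00001d009802, chromosome 8) and BTB/POZ domain1 (Zm00001d019513, chromosome 7) were named. Homeobox proteins bind DNA, and BTB/POZ domains mediate contacts between proteins. Neither had a read in DAN3130. Homeobox-transcription factor 86 had 117, 72.3 and 143 on DAP 24, 128, 107 and 142 on DAP 35, and 23.2, 64.2 and 99.8 at maturity, and passed the test at neither step. BTB/POZ domain1 had 87.3, 81.9 and 47.7 on DAP 24, 51.7, 126 and 74.7 on DAP 35, and 25.8, 20.7 and 24.3 at maturity, where it was below every earlier library. Its difference from DAP 35 was -1.70 ± 0.50, and it passed the limit of the rule only through DAP 35.

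Bundle sheath strands specific1 (Zm00001d011813, chromosome 8) is named for the cells around the veins of maize leaves. It had 35.0, 43.4 and 11.6 on DAP 24, 96.3, 184 and 121 on DAP 35, and 92.9, 4.14 and 80.3 at maturity. The DAP 35 libraries were above all others, with mature replicate 40 far below the other mature libraries, and neither step passed the test. The related name bundle sheath defective2 was low in both lines, with 2.04 ± 3.95 in JI63 and 12.7 ± 11.1 in DAN3130.

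Abscisic acid stress ripening9 (Zm00001d040787, chromosome 3) belongs to a family of small proteins induced by abscisic acid, drought and ripening. It had 318, 196 and 90.05 on DAP 24, 97.3, 221 and 41.1 on DAP 35, and 2.58, 0 and 0 in mature kernels. With a single read left at maturity, the ratio of DAP 35 to maturity was 139 by the group means, and 114 by reads and depth pooled over the libraries, with a 95% exact counting interval of 20.4 to 4509 around the pooled value. The fall passed the test (adjusted p = 0.000211). Its neighbours of the same family on chromosome 3 were also low in DAN3130, with 75.7 ± 82.3 in JI63 and 2.46 ± 3.57 in DAN3130 for abscisic acid stress ripening7, and 0.0508 ± 0.152 and 1.72 ± 3.25 for abscisic acid stress ripening8. Elsewhere the family went both ways. Abscisic acid stress ripening5, on chromosome 10, had 174 ± 152 in JI63 and 4893 ± 5460 in DAN3130. Higher in JI63 were abscisic acid stress ripening1 (954 ± 917 against 104 ± 83.1), 2 (114 ± 57.4 against 34.5 ± 38.4) and 3 (77.1 ± 82.8 against 4.94 ± 7.87). Abscisic acid stress ripening6 had 16.1 ± 15.8 in JI63 and 19.97 ± 20.95 in DAN3130.

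A pair of loci coded for precursors of signalling peptides. Precursor elicitor peptide3 (Zm00001d002138, chromosome 2, 6519765 to 6520292) belongs to the maize Pep family, whose cleaved peptides act as defence signals. It had 20.5, 3.21 and 24.1 on DAP 24, 83.1, 168 and 91.6 on DAP 35, and 289, 487 and 219 at maturity, and no read in DAN3130. Each stage stood wholly above the one before. It rose by 3.06 ± 0.70 to DAP 35 (adjusted p = 0.0183, or 0.0601 and 0.0502 without DAP 35 replicates 27 and 29), while the step to maturity missed the threshold (1.52 ± 0.70, adjusted p = 0.0832). The gene beside it, precursor elicitor peptide1, was read in both lines, with 1087 ± 663 in JI63 and 1033 ± 839 in DAN3130.

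Phytosulfokine4 codes for the precursor of a sulfated peptide hormone of cell growth, and lay in the cluster on chromosome 10. It had 81.4, 89.98 and 81.4 on DAP 24, 162, 162 and 172 on DAP 35, and 0, 0 and 19.5 in mature kernels, where mature replicate 41 alone had reads. The difference was 0.97 ± 1.03 to DAP 35, where the libraries did not overlap, and -5.93 ± 1.03 to maturity, and the locus passed the limit of the rule only through DAP 35. Both SEs include the spread of the mature libraries. Phytosulfokine peptide precursor1 had 376 ± 336 in JI63 and 3573 ± 1792 in DAN3130, the opposite order. Phytosulfokine peptide precursor3 was low in both lines, with 14.6 ± 16.6 in JI63 and 3.54 ± 4.93 in DAN3130.

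Small nucleolar RNAs guide the modification or cleavage of ribosomal RNA, and 3 of the named loci carried them. The locus named snoR160 (XLOC_038169, chromosome 4, 85231181 to 85234414) had 483, 458 and 520 on DAP 24, 534, 312 and 641 on DAP 35, and 36.1, 43.5 and 17.0 at maturity. The mature libraries lay far below both earlier stages, and it fell by 3.94 ± 0.40 (adjusted p = 3.6e-05). The longest isoform of this locus was 2292 bases, far beyond a single small RNA. Of the 5 other loci with the same name, 3 had line means from 172 to 1363, among them XLOC_047567, with 1363 ± 595 in JI63 and 1071 ± 679 in DAN3130. The exceptions were XLOC_019212, with 593 ± 237 in JI63 and 20.03 ± 18.4 in DAN3130, and XLOC_079890, without a read in either line.

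A pair of U3 loci lay 7.19 kb from end to end on chromosome 10, from 144721354 to 144728543. U3 takes part in the first cleavages of the ribosomal RNA precursor. XLOC_013980 had 33.9, 64.3 and 70.8 on DAP 24, 3.99, 1.63 and 4.34 on DAP 35, and 121, 78.7 and 139 at maturity. XLOC_013981 had 22.6, 35.3 and 28.4, then 6.42, 7.32 and 4.34, then 299, 207 and 302. Both were thus lowest on DAP 35 and highest at maturity, without overlap between stages and without a read in DAN3130.

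To DAP 35, XLOC_013980 fell by 3.73 ± 0.58 (adjusted p = 0.00388). XLOC_013981 fell by 2.09 ± 0.49 (adjusted p = 0.0207), which ranged from 0.0587 to 0.0874 without DAP 24 replicate 24, DAP 24 replicate 25, DAP 35 replicate 26 or DAP 35 replicate 29. To maturity the differences were 4.75 ± 0.58 and 5.27 ± 0.49, and both loci passed the limit of the rule only through maturity. U3 copies are nearly identical, so reads can be placed at the wrong copy, and among the 14 U3 loci of the table XLOC_071541 had 487 ± 936 in DAN3130 and 0.0578 ± 0.173 in JI63.

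**Figure D3:**
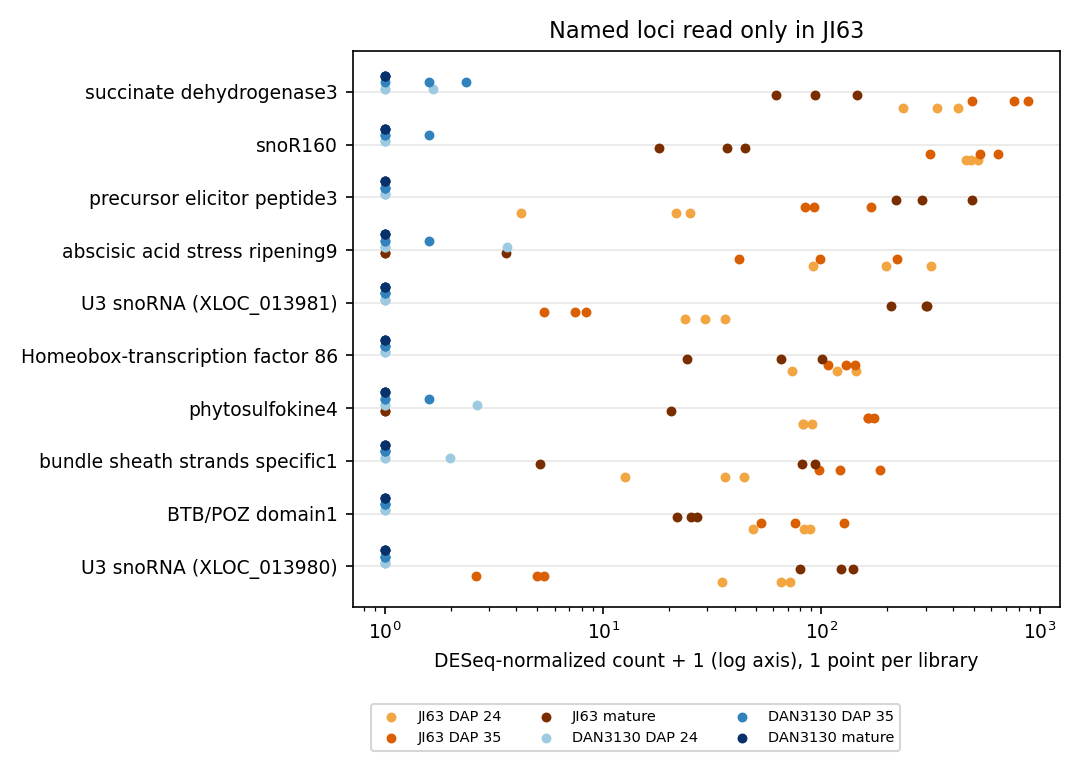
DESeq-normalized count plus 1 (log x axis) of the 10 named JI63-only loci, 1 point per library, in orange to brown for the 3 JI63 stages and in blue for the DAN3130 libraries. The U3 loci are lowest on DAP 35 (1.63 to 7.32 before adding 1), precursor elicitor peptide3 has its highest libraries at maturity (219 to 487), and DAN3130 points lie at or near the left edge.

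Most of the 10 loci with the highest JI63 means in normalized counts peaked at maturity on the deposited scale. Of these 10, 4 had a B73 gene, 8 had their highest stage mean in mature kernels, and 2 on DAP 24. The mean is not divided by length, so this order also follows the length of the locus. Per kilobase of the longest isoform, XLOC_032269 (4157), XLOC_002750 (1926) and XLOC_037491 (992) were at the top.

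The highest was XLOC_032269, the locus of Zm00001d041796 on chromosome 3 (138465586 to 138469370). It had 6.47, 9.64 and 13.0 on DAP 24, 2.26, 8.95 and 14.8 on DAP 35, and 13794, 20527 and 14527 in mature kernels. The mature libraries were far above every other, and in DAN3130 the locus had a single read. The difference from DAP 35 to maturity was 10.97 ± 0.56, the largest increase at this step among the 367 loci, and the rule passed the locus only through maturity. Its neighbour XLOC_035461, without a gene, went from 2 reads over the DAP 35 libraries to 144, 89.0 and 263 normalized counts at maturity, a ratio of 1431 by the group means. By pooled reads and depth the ratio was 918, with a 95% exact counting interval of 251 to 7634. The neighbour also passed the rule only through maturity, and no other locus of the table lay between them.

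Several other loci without a gene rose at maturity from a substantial level. XLOC_002750 on chromosome 1 had 301, 472 and 479 on DAP 24, 528, 809 and 445 on DAP 35, and 7493, 6859 and 5443 at maturity, without a read in DAN3130. It rose by 3.51 ± 0.27 (adjusted p = 8.08e-06), with every mature library above every earlier one. XLOC_037491 on chromosome 4 had 57.4, 379 and 55.1 on DAP 35 and 5111, 4180 and 3301 at maturity, a rise of 5.26 ± 0.85 (adjusted p = 0.00053). XLOC_011850 on chromosome 1 had 34.7, 238 and 53.2 on DAP 35 and 2394, 3329 and 1468 at maturity, a rise of 4.88 ± 0.64 (adjusted p = 0.000153). In both of these loci DAP 35 replicate 27 was the highest of its group.

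XLOC_048679 on chromosome 5 was higher at each step. It had 8.62, 4.82 and 3.85 on DAP 24, 36.3, 22.0 and 36.3 on DAP 35, and 3850, 1393 and 3861 at maturity, with no overlap between stages. It rose to DAP 35 by 2.29 ± 0.52 (adjusted p = 0.018). The difference to maturity was 6.44 ± 0.52, and the locus passed the rule only through maturity. The first rise missed the threshold without DAP 24 replicate 24 or 25 or without DAP 35 replicate 26 or 29 (adjusted p from 0.0613 to 0.0661).

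A group of 3 further loci among the 10 carried B73 genes without a name in the file. Zm00001d018680 (XLOC_062743, chromosome 7) had 115, 69.1 and 147 on DAP 24, 857, 1229 and 718 on DAP 35, and 3857, 3052 and 1906 at maturity, without overlap. It rose by 3.10 ± 0.35 (adjusted p = 0.00118) and by 1.63 ± 0.35 (0.0027). Zm00001d043853 (XLOC_030612, chromosome 3) had 526, 1543 and 637 on DAP 35 and 3597, 3760 and 3242 at maturity, and rose by 2.13 ± 0.33 (adjusted p = 0.000427). Zm00001d016679 (XLOC_051388, chromosome 5) had 1452, 1475 and 1395 on DAP 24, 1485, 1110 and 1713 on DAP 35, and 743, 509 and 988 at maturity. Its fall by 0.97 ± 0.25 was called (adjusted p = 0.00729) but not with all 18 libraries in the fit (0.129).

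The remaining 2 of the 10 were XLOC_043859 on chromosome 4 and XLOC_032039 on chromosome 3, both without a gene. XLOC_043859, at 65537785 to 65543643, had 5538, 5021 and 7183 on DAP 24, 870, 544 and 858 on DAP 35, and 36.1, 0 and 0 at maturity. The stages did not overlap. The step to DAP 35 was not called (-2.98 ± 1.14, adjusted p = 0.117), and it fell to maturity by 7.80 ± 1.14 (adjusted p = 0.000303). The SE of the first step includes the spread of the mature libraries, which are not part of that comparison. XLOC_032039 had 761, 855 and 805 on DAP 24, 507, 461 and 504 on DAP 35, and 1595, 1308 and 1125 at maturity, so DAP 35 was lowest. It rose by 1.44 ± 0.17 at maturity (adjusted p = 9.28e-05). Its fall to DAP 35 was small (-0.72 ± 0.17, adjusted p = 0.023), and missed the threshold when any 1 of 5 libraries was left out, at 0.0525, 0.0905 and 0.0678 without DAP 24 replicates 22, 24 and 25 and at 0.0650 and 0.0591 without DAP 35 replicates 26 and 29, as it did with all 18 libraries in the fit (0.480).

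**Figure D4:**
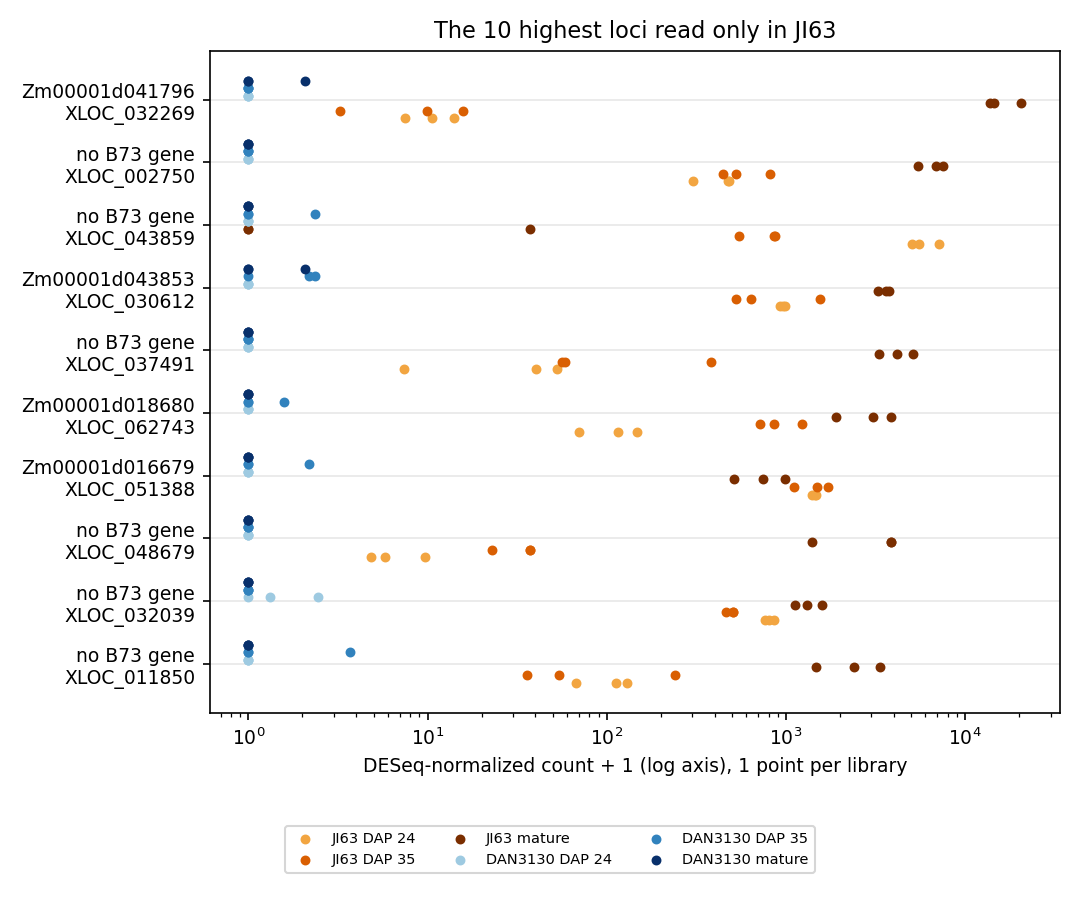
DESeq-normalized count plus 1 (log x axis) of the 10 JI63-only loci with the highest JI63 means, 1 point per library, in orange to brown for the 3 JI63 stages and in blue for DAN3130. XLOC_032269 (Zm00001d041796) spans 2.26 to 14.8 on DAP 35 and 13794 to 20527 at maturity, while XLOC_043859 runs from 5021 to 7183 on DAP 24 down to 0 to 36.1 at maturity.

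From DAP 24 to DAP 35 (comparison II of the study), 39 JI63-only loci were called. Of the 367, 21 (5.72%) were higher and 18 (4.90%) lower on DAP 35, against 6.81% and 7.24% of all loci tested, and 328 were not called. The shares were 8.84% and 8.34% among the other loci with a JI63 mean of at least 50, and 7.11% and 8.93% among those of them without a B73 gene. Of the 186 loci that passed the limit without their highest stage, 14 (7.53%) were higher and 4 (2.15%) lower, against 9.08% and 8.44% of the 17221 other loci that passed it so. This subset leaves out 49 loci highest on DAP 24 and 32 highest on DAP 35. Its shares were thus partly fixed by its choice and are not matched for level. In all 39 called loci the libraries of the stages did not overlap, as in 99.8% of all loci called in either direction. The median log2 fold change was 0.20, against 0.03 for all loci. The count was smaller with a library left out, with 9 higher and 11 lower without DAP 24 replicate 24, and 12 and 10 higher without DAP 35 replicates 26 and 29. Calls over all 27127 loci also fell, from 1848 higher and 1964 lower to 875 and 870 without DAP 24 replicate 24. Without DAP 35 replicates 26 and 29, 1027 and 1120 of all loci were higher. Of the 118 loci with a B73 gene, 10 were higher and 2 lower, and of the 249 without one, 11 were higher and 16 lower, and this difference was not tested.

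The largest called rises to DAP 35 started from few or no reads. Zm00001d033064 (XLOC_006737, chromosome 1) had 0, 3.21 and 0 on DAP 24 and 17.0, 97.7 and 25.4 on DAP 35, a ratio of 43.6 by the group means (adjusted p = 0.00806). By pooled reads and depth, in which the deeper libraries weigh more, the ratio was 65.9 with a 95% exact counting interval of 18.1 to 546. At maturity it had 343, 186 and 185, above all earlier libraries, a further difference of 2.67 ± 0.84. Zm00001d049732 (XLOC_040580, chromosome 4) had no reads on DAP 24, 8.50, 22.0 and 4.57 on DAP 35, and 173, 251 and 117 at maturity. Its first step was at least 17.7-fold against 3 reads over the DAP 24 libraries (adjusted p = 0.0111, or 0.0580 with a pseudocount of 5), and the difference to maturity was 4.02 ± 0.68. Both genes passed the limit of the rule only through maturity.

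The other loci with the largest called increases to DAP 35 had no gene. XLOC_067275 on chromosome 7 had 8.62, 1.61 and 5.78 on DAP 24, 86.2, 87.9 and 104 on DAP 35, and 56.8, 37.3 and 127 at maturity. The difference to DAP 35 was 4.07 ± 0.67, and the locus passed the limit of the rule only through that stage. XLOC_007345 on chromosome 1 had 56.0, 28.9 and 28.9 on DAP 24, 367, 278 and 407 on DAP 35, and 1277, 513 and 981 at maturity, each stage wholly above the last. Its first rise was 3.23 ± 0.40 (adjusted p = 0.00161), and its second, of 1.31 ± 0.40 (0.0172), missed the threshold without DAP 35 replicate 27 (0.0542), without mature replicate 39 (0.0615) and with all 18 libraries in the fit (0.0610). XLOC_037160 on chromosome 3 had 3.23, 6.43 and 31.8 on DAP 24 and 90.03, 186 and 84.7 on DAP 35. Its rise of 3.49 ± 0.78 (adjusted p = 0.0171) also missed it without DAP 24 replicate 22 (0.0565), DAP 24 replicate 24 (0.0705) or DAP 35 replicate 27 (0.0578).

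The largest called decreases to DAP 35 were, besides the U3 locus XLOC_013980, in loci without a gene that had few or no reads at maturity. XLOC_062472 on chromosome 6 had 94.8, 389 and 128 on DAP 24, 11.4, 0 and 4.34 on DAP 35, and no read at maturity. Its difference was -5.38 ± 0.96. XLOC_026807 on chromosome 2 had 209, 138 and 101, then 4.16, 8.14 and 0.914, a difference of -5.003 ± 0.71. XLOC_019358, also on chromosome 2, had 122, 265 and 93.9, then 11.6, 1.63 and 14.2, a difference of -4.20 ± 0.80. Neither of these 2 had a read at maturity. XLOC_064368 on chromosome 7 had 505, 477 and 538, then 52.9, 20.3 and 37.9, then 0, 2.07 and 7.30. Its difference to DAP 35 was -3.84 ± 0.76, and it fell to maturity by 3.59 ± 0.76 (adjusted p = 0.0026). All 4 of these loci passed the limit of the rule only through DAP 24.

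From DAP 35 to maturity (comparison IV), about as many of the 367 JI63-only loci were higher as lower. Of the 367, 122 (33.2%) were higher and 128 (34.9%) lower in mature kernels, against 23.8% and 35.7% of all loci tested, and 117 were not called. Among the other loci with a JI63 mean of at least 50, 27.8% were higher and 37.1% lower, and among those of them without a B73 gene 36.3% and 33.0%. The share of all JI63-only loci that were higher thus lay between that of the other loci and that of the other loci without a gene. Of the 186 loci that passed the limit without their highest stage, 33 (17.7%) were higher and 68 (36.6%) lower, against 26.8% and 37.2% of the other loci that passed it so. Of the 181 loci left out of this subset, 100 were highest at maturity, while only 9.65% of the other loci were left out in this way. The shares of the subset were thus partly fixed by its choice and are not matched for level. The libraries did not overlap in 120 of the 122 higher loci (98.4%) and 125 of the 128 lower ones (97.7%), against 96.3% and 95.5% of all loci called higher and lower. The annotated and the other JI63-only loci gave like counts, with 38 higher and 41 lower of 118 loci with a gene, and 84 and 87 of 249 without one.

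Marker lists of kernel tissues moved over the same step. In JI63 the summed endosperm markers went from 197888 to 204165 normalized counts on DAP 35 to 458 to 2998 at maturity, and the embryo markers from 594108 to 1601080 to 3333500 to 4670030. Their part in the result was not tested. In these bulk samples fewer cells of a type and less RNA per cell cannot be told apart.

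The direction of these counts depended on scaling. In the deposited values the mature libraries of JI63 summed to 44329869 to 52884044 normalized counts and the earlier ones to 22662777 to 28947415. The median log2 fold change of all loci was -0.44 and that of the JI63-only loci -0.36. With libraries set to equal totals these medians were -1.34 and -1.31, and 84 JI63-only loci were higher and 182 lower. Higher calls then made up 31.6% of calls in place of 48.8%. Under equal upper quartiles 81 were higher and 175 lower, with medians of -1.31 for all loci and -1.26 for the JI63-only loci. Under either scaling the rises at maturity of Zm00001d018680, XLOC_007345 and XLOC_032039 and the fall of XLOC_032039 to DAP 35 no longer passed the test.

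The largest called increases at maturity were in loci that were all but absent before it, and all 5 of them passed the limit of the rule only through maturity. Besides XLOC_032269, XLOC_016069 and XLOC_035461 these were Zm00001d008946 (XLOC_069912, chromosome 8) and XLOC_028828 (chromosome 3, without a gene). Zm00001d008946 had a single read over the 6 immature JI63 libraries and 191, 366 and 275 normalized counts at maturity, a ratio to DAP 35 of 4799 by the group means. By pooled reads and depth the ratio was 3230, with a 95% exact counting interval of 576 to 127900. XLOC_028828 had 0.694, 0.814 and 2.06 on DAP 35 and 658, 178 and 287 at maturity, a difference of 7.26 ± 0.67.

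The largest falls at maturity left no reads in mature kernels, or next to none. XLOC_078159 on chromosome 9 had 594, 578 and 451 on DAP 24, 301, 230 and 299 on DAP 35, and no read in any mature library. It fell at least 118-fold from DAP 35, against 3 reads over the mature libraries (adjusted p = 1.52e-06). XLOC_074589 on chromosome 8 fell at least 46.2-fold (adjusted p = 1.26e-05), also without a mature read. XLOC_075438 on the same chromosome, which passed the limit of the rule only through DAP 35, was at least 52.3-fold lower at maturity. XLOC_048320 on chromosome 5 had 175, 128 and 139 on DAP 35 and a single read at maturity, a ratio of 213 by the group means (adjusted p = 1.94e-05). By pooled reads and depth it was 199.8, with a 95% exact counting interval of 35.8 to 7896. All 4 lacked a B73 gene.

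**Figure D5:**
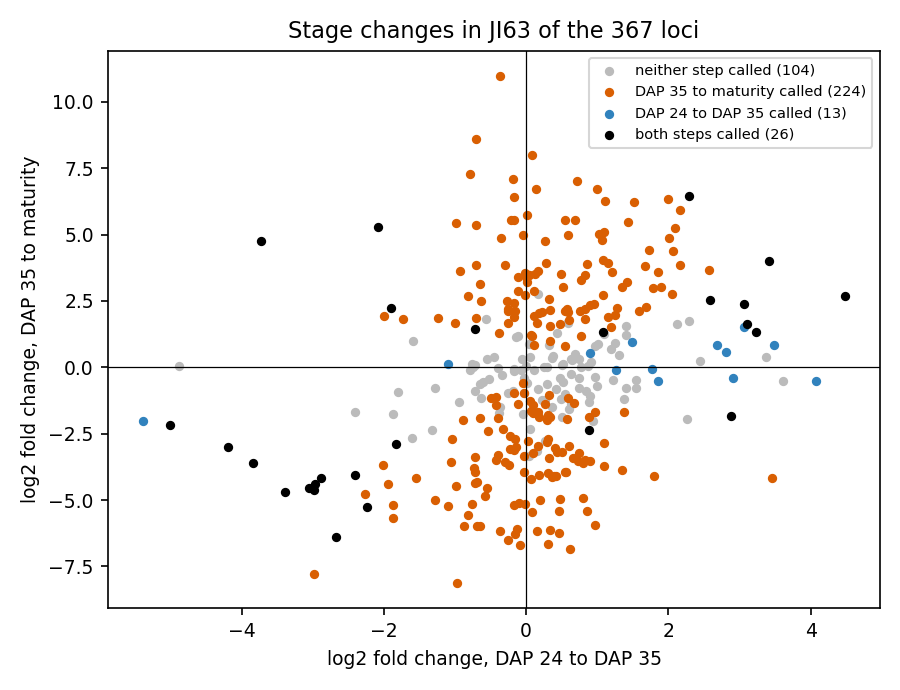
Log2 fold change from DAP 24 to DAP 35 (x axis) and from DAP 35 to maturity (y axis) within JI63 for each of the 367 JI63-only loci, coloured by the steps called at an adjusted p under 0.05. The points spread wider along the y axis, where 250 loci were called (224 at that step alone), than along the x axis, where 39 were called (13 alone).

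Of the 367 loci, 26 (7.08%) were called at both steps, against 9.82% of all loci tested. Of these, 8 were higher at both steps (2.18%, against 3.22% of all loci tested), 12 lower at both (3.27% against 3.59%), 2 higher and then lower (0.545% against 1.44%), and 4 lower and then higher (1.09% against 1.56%), the U3 loci among the latter. A further 104 (28.3%) passed the test at neither step, against 36.3% of all loci tested.

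A larger share of JI63-only loci than of the other loci was read mostly at maturity or hardly at all then, and the shares lay near those of other loci without a gene. The highest stage mean was at DAP 24 in 101 loci (27.5%), at DAP 35 in 98 (26.7%) and in mature kernels in 168 (45.8%). For the other loci with a JI63 mean of at least 50 these shares were 35.5%, 25.7% and 38.8%, and for those of them without a B73 gene 30.4%, 22.6% and 47.0%. More than 90% of the summed stage means was at maturity in 42 JI63-only loci (11.4%), against 2.21% of the other loci and 9.97% of those without a gene. Less than 1% was at maturity in 32 (8.72%), against 3.68% and 7.81%. These stage shares rest on the deposited scale, on which the mature libraries sum highest. With libraries set to equal totals, an alternative chosen after seeing the data, the highest mean was at maturity in 129 loci (35.1%), against 21.6% of the other loci and 35.0% of those without a gene. More than 90% was then at maturity in 27 (7.36%), against 1.002% and 5.204%, and less than 1% in 38 (10.4%), against 4.71% and 8.93%. JI63-only loci lay nearer the limit of the rule, with a median JI63 mean of 90.2. It was 498 in the other loci and 143 in those without a gene. A locus near the limit with over 90% at maturity passes it only through maturity. The shares were thus partly fixed by the rule and are not matched for level. They are descriptions, and no test was made of the differences.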

How the data were processed

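The authors deposited 1 table of DESeq-normalized counts, a signal that is never negative, per assembled locus in 18 libraries. Per the labels and the study's methods, reads were aligned without strand to B73 (AGPv4) with HISAT2 2.1.0, assembled with Cufflinks and Cuffcompare, and counted with HTSeq 0.11.2. Per the same sources, total kernel RNA was DNase-treated, a first-strand cDNA kit was used, and a service company made the libraries. Whether poly(A) RNA was selected or ribosomal RNA depleted is not stated by these sources. In each library 100% of values were whole multiples of the value of 1 read, within 0.1%, so reads were recovered. The 26258 intron entries were kept apart from loci.

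The 9 JI63 libraries were fitted in 3 stage groups with limma 3.58.1 (R 4.3.3; empirical Bayes, mean-variance trend) on log2(signal + 1), over loci with a mean above 10, with Benjamini-Hochberg adjustment and a threshold of 0.05. DAN3130 libraries, near 0 at these loci, stayed out. On recovered reads, edgeR 4.0.16 called 1838 loci higher and 1933 lower on DAP 35 and 6431 and 8732 at maturity, and DESeq2 1.42.0 called 2938 and 3256 on DAP 35 and 7090 and 9472 at maturity. Tested on simulated data for DAP 35 against maturity, 200 of 27127 loci raised 8-fold were all recovered and 11 unchanged loci were called, and without any change between DAP 24 and DAP 35, 0 were called. The simulation gave all loci the same dispersion and changed no others between stages. It therefore does not cover the differing spread of real loci, the many changes at maturity or the higher mature totals. Confidence intervals of 95% and floors of 3 reads cover counting error only.

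Named loci were those with a name in the table, the 10 highest JI63 means, the 5 largest called rises and falls of each step without overlap, members of clusters of 3, and loci next to a limit of the rule. The loci and lists were chosen with earlier results of these data known. Replicate names are the library codes. Other scalings, filters, pseudocounts, models and limits, and leaving out each library, were also tried. Gene names come from the table alone, and no sequence was used here. A list of pollen markers matched no locus.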

Additional observations from a re-analysis of the deposited data

How the results depend on the processing

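The count of JI63-only loci followed the limits of the rule. It was 195 with a DAN3130 mean of exactly 0, 232 with one below 0.1 and 818 with one below 5, and 949 and 168 with a JI63 mean of at least 20 and at least 100. Leaving out 1 library gave 356 to 432. With libraries set to equal totals the count was 356, of which 312 were among the 367, and over the 12 immature libraries alone, an alternative chosen after seeing the data, it was 340, of which 242 were. Clusters held 39 loci with gaps of at most 50 kb and 145 with gaps of at most 1 Mb.

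From DAP 24 to DAP 35, 49 loci were higher and 28 lower with a log2 fold change of at least 1 and an unadjusted p under 0.05, 36 and 37 with only the 6 libraries compared, and 45 and 37 by DESeq2. Leaving out 1 JI63 library gave 9 to 31 higher and 11 to 25 lower. From DAP 35 to maturity, leaving out 1 library gave 98 to 122 higher and 105 to 133 lower, and equal upper quartiles gave 81 higher. Over the 186 loci that passed the limit without their highest stage, chosen after seeing the data, 4 were lower on DAP 35, and 33 were higher and 68 lower at maturity. These counts were partly fixed by that choice. Zm00001d018313 had -0.1083 and -0.0565 at maturity with equal totals and equal upper quartiles. Of 57 called changes of named loci, those partly fixed by the rule included, 37 held under every alternative run and 20 missed the threshold or turned under at least 1. The causes were not tested.

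No paired analysis was possible because the library codes that serve as replicate numbers are not shared between groups. At maturity 1 read was worth 2.07 to 2.58 normalized counts in JI63, so single libraries resolve no lower level there. An unread locus in DAN3130 may be missing, diverged or silent, and these cannot be told apart here.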
